A study of Mus musculus with 8 samples.

Results

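Laminins and nidogens are the glycoproteins on which the endothelial basement membrane is built, and 10 of their genes were examined in brain endothelial cells (ECs) that express an activated MAP2K1. The genes were *Lama1*, *Lama2*, *Lama3*, *Lama4*, *Lama5*, *Lamb1*, *Lamb2*, *Lamc1*, *Nid1* and *Nid2*. They were taken by name from the 49315 genes of the count files, with earlier results of these data known. All 10 were found and passed the filter on low counts. The study compared 4 mutant pups, R26GT-Map2k1-GFP/+;Tg-Cdh5CreER+/- and labelled Map2k1 K57N, with 4 pups labelled wild type, to ask which transcripts change when brain ECs express the mutant protein. All pups were of a C57BL/6J background and received tamoxifen under the skin at postnatal day 1, and brains were taken at day 9. In the mutant, Cre under the *Cdh5* promoter removes a stop cassette in ECs, so that the *Map2k1* cDNA is expressed from the CAG promoter at the *Rosa* locus. Only some of the ECs carried the recombined allele, so each mutant library mixes recombined and unrecombined ECs, and no group expressed wild-type MAP2K1 from *Rosa*. Whether the controls carried either transgene alone is not stated for these pups. ECs were captured from digested whole brain with beads against CD31, and each pup gave 1 library.

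A laminin is a cross-shaped trimer of 1 alpha, 1 beta and 1 gamma chain. The alpha chain carries the globular domains that bind integrins and dystroglycan on the cell, and the short arms of the 3 chains join into a sheet. Nidogens attach the gamma chain to collagen IV and perlecan. In brain vessels, ECs make laminins with the alpha 4 and alpha 5 chains, while the alpha 1 and alpha 2 chains are known mainly from the membranes laid down by meningeal cells, mural cells and astrocytes.

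Between 24833373 and 34196955 reads per library were counted on genes, and values for single genes are given as normalized counts, which are counts scaled by the TMM method to the mean library size. The labels were checked on *Map2k1*, whose endogenous and recombined transcripts are counted together. It had 18734, 12692, 12707 and 14342 normalized counts in mutants 1 to 4, and 1640.4, 1762, 1535 and 1506 in wild types 1 to 4. The endothelial label was checked on 10 EC markers, among them *Pecam1*, *Cdh5* and *Cldn5*. All 10 were detected, and they summed to 12248 to 14840 counts per 1000000 counts (CPM) in mutant and 11524 to 13968 in wild-type libraries.

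Of the 10 genes, 5 were higher and 3 lower in mutant ECs, calling a gene where the Benjamini-Hochberg adjusted p over 16887 genes was under 0.05 in the quasi-likelihood test of edgeR. *Lamb1* and *Nid2* rose more than 2-fold, *Lama4*, *Lamc1* and *Nid1* rose by 1.37-fold to 1.44-fold, and *Lama1*, *Lama5* and *Lamb2* fell. *Lama2* and *Lama3* did not pass the threshold. Over all genes tested, 44.4% were called, 21.5% as higher and 22.9% as lower. With the study's further limit of a log2 fold change over 1, which 5.90% of genes met as higher and 8.05% as lower, *Lamb1* and *Nid2* remained, and no member had a log2 fold change under -1 with edgeR or with DESeq2. Together the 10 genes took 0.736% to 0.846% of all counts in mutant and 0.575% to 0.635% in wild-type libraries. The median log2 fold change was 0.41 over the 10 genes and -0.02 over all genes tested. In the 5 higher members all mutant libraries lay above all wild-type libraries, which was so for 20.6% of all genes, and in the 3 lower members they all lay below, which was so for 21.9%, or 42.5% in either direction.

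**Figure D1:**
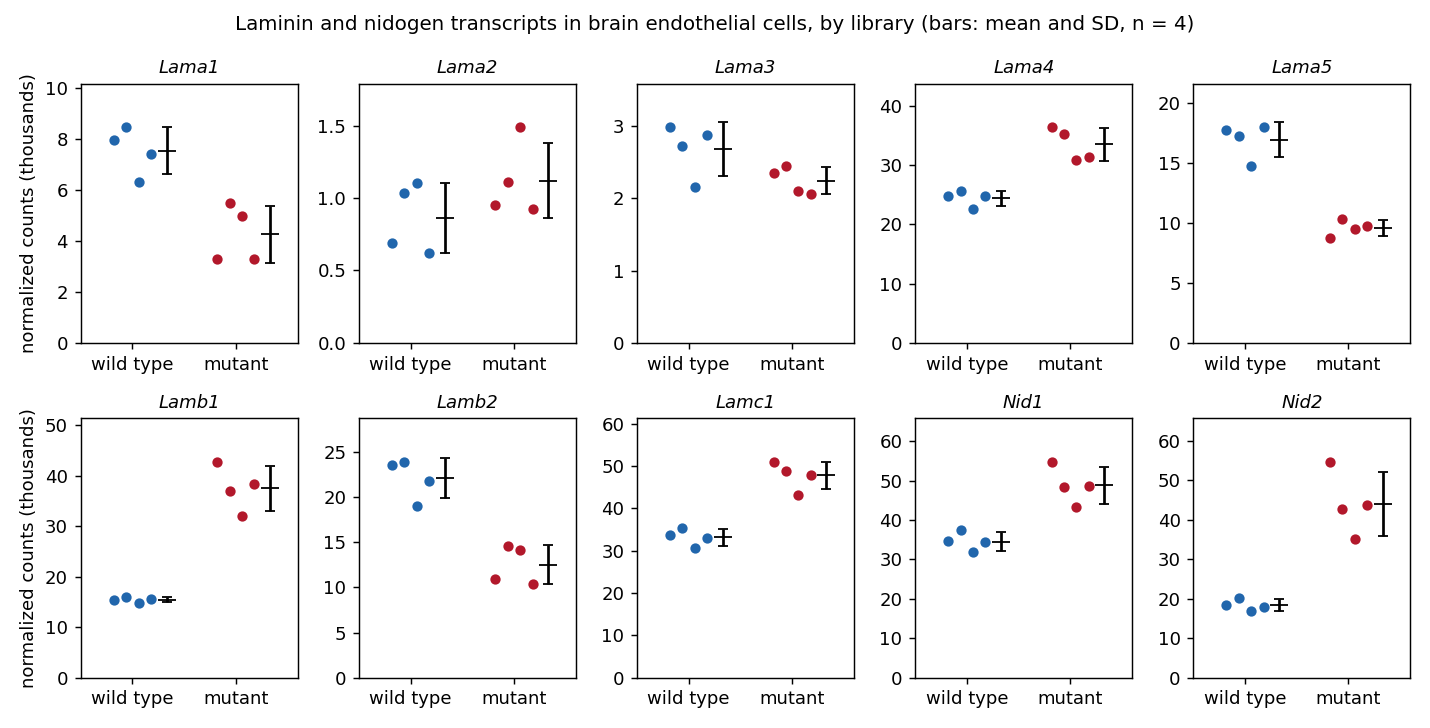
Normalized counts (y axis, in units of 1000, from 0) of each laminin and nidogen gene in the 4 wild-type (blue) and 4 mutant (red) libraries, with the mean and SD as a bar beside the points. Mutant libraries lay above wild-type libraries for *Lama4*, *Lamb1*, *Lamc1*, *Nid1* and *Nid2*, below them for *Lama1*, *Lama5* and *Lamb2*, and overlapped them for *Lama2* and *Lama3*.

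**Figure D2:**
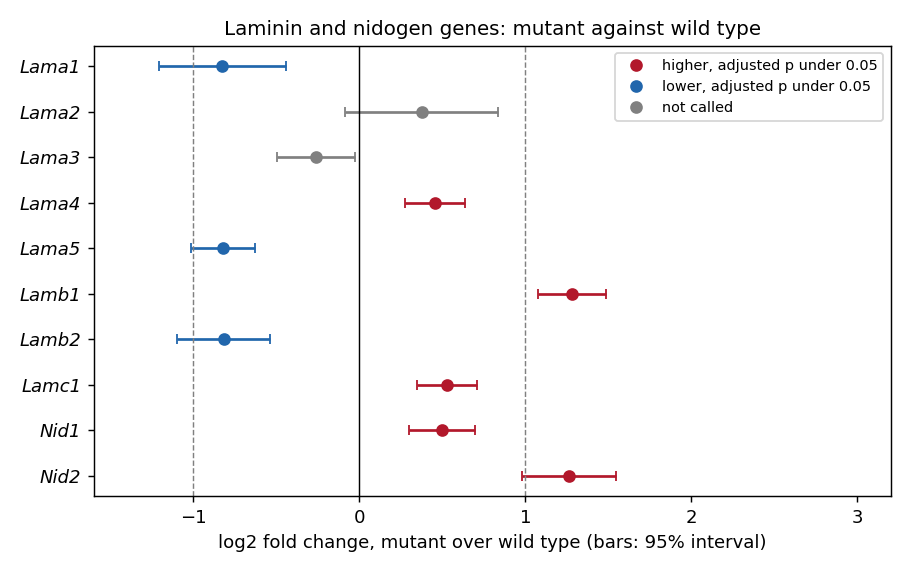
Log2 fold change of mutant over wild type (x axis) for the 10 genes, with 95% intervals as bars and dashed lines at -1 and 1. *Lamb1* at 1.28 and *Nid2* at 1.26 lay beyond the dashed line, and *Lama1*, *Lama5* and *Lamb2* lay close together between -0.83 and -0.82.

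The beta chains moved in opposite directions. *Lamb1* (ENSMUSG00000002900, chr12:31265234-31329644 of GRCm38, plus strand) had 15415, 16009, 14838 and 15566 normalized counts in wild types 1 to 4 and 42773, 36858, 32068 and 38278 in mutants 1 to 4. The lowest mutant library therefore held more than double the highest wild-type library, and the wild-type values were close to each other. The mean was 15457 ± 484 (SD, n = 4) for the wild types and 37494 ± 4409 (SD, n = 4) for the mutants, so *Lamb1* rose by 1.28 on the log2 scale (standard error 0.09, adjusted p = 6.35e-06, edgeR). *Lamb2* (ENSMUSG00000052911, chr9:108479736-108490530, plus strand) had 23512, 23925, 19054 and 21789 in wild types 1 to 4 and 10906, 14539, 14183 and 10415 in mutants 1 to 4. Mutants 2 and 3 stood above mutants 1 and 4, and all were below the lowest wild type. *Lamb2* fell by 0.82 on the log2 scale (standard error 0.13, adjusted p = 5.33e-04, edgeR), from 22070.0 ± 2213 (SD, n = 4) to 12511 ± 2151 (SD, n = 4). Wild-type ECs had more reads on *Lamb2* than on *Lamb1*, and mutant ECs had more on *Lamb1*.

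Promoter sequences from RefSeq (GRCm38.p6) were read for *Lama2*, *Lama5*, *Lamb1*, *Lamb2* and *Nid1*, and none were read for the other members. The 250 bases before the RefSeq start are shown for the pair of beta chains, because they moved oppositely, and for *Nid1* and *Lama5* as another gene that rose and another that fell. Sequences run 5′ to 3′ on the strand of the gene, and capitals mark matches on either strand to 3 motifs: TGAGTCA of AP-1, CCGGAA of ETS factors and GGGCGG of Sp1. *Lamb1* is at chr12:31265043-31265292 on the plus strand, *Lamb2* at chr9:108479612-108479861 on the plus strand, *Nid1* at chr13:13437352-13437601 on the plus strand, and *Lama5* at chr2:180225860-180226109 on the minus strand. The *Nid1* and *Lama5* windows end where the counted gene begins. Those of *Lamb1* and *Lamb2* run past the counted starts at 31265234 and 108479736, and that of *Lama2* lies inside the counted gene. The *Lamb1*, *Lamb2* and *Lama2* windows therefore do not show the 250 bases before the counted starts in full or at all.
Lamb1: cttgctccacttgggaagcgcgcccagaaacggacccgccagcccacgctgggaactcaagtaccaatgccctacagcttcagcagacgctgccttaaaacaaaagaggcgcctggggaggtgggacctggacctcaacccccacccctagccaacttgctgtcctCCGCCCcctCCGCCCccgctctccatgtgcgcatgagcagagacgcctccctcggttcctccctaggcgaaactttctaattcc
Lamb2: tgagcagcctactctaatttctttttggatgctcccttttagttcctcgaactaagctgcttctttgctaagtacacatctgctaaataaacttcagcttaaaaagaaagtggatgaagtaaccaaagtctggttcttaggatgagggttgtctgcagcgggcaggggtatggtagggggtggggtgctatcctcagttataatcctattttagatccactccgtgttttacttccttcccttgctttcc
Nid1: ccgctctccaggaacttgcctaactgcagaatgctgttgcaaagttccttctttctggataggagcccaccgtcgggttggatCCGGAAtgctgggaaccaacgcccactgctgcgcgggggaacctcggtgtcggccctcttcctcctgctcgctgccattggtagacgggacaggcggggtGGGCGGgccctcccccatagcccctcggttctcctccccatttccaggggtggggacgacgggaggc
Lama5: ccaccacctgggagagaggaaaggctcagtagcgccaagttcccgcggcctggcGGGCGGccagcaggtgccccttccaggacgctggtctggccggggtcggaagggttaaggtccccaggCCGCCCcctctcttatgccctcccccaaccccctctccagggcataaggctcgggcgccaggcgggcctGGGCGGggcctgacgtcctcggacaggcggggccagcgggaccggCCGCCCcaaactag
The *Lamb1* window held 2 matches to the Sp1 motif, at -84 to -79 and at -75 to -70 from the RefSeq start, not from the counted start. The *Lamb2* window held no match to any of the 3 motifs. *Nid1* had 1 match to the ETS motif (-167 to -162) and 1 to the Sp1 motif (-67 to -62), and *Lama5* had 4 to the Sp1 motif. The *Lama2* window had none. Over the 32851 promoter windows of the same length, 4.46% held the AP-1 motif, 12% the ETS motif and 32.7% the Sp1 motif. Matches to different motifs did not overlap each other in the printed windows. The G and C content was 62.0% for *Lamb1*, 64.4% for *Nid1*, 72.4% for *Lama5*, 47.2% for *Lama2* and 43.6% for *Lamb2*, with a median of 52.4% over all windows. These are matches of letters, and binding was not measured.

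Among the alpha chains, the 2 chains that ECs are known to make also moved apart. *Lama4* (ENSMUSG00000019846, chr10:38965515-39110188, plus strand), which encodes the main alpha chain of endothelial laminin, had 24732, 25689, 22684 and 24757 normalized counts in wild types 1 to 4 and 36489.9, 35261, 30834 and 31464 in mutants 1 to 4. The lowest mutant library stood above the highest wild type. *Lama4* rose by 0.45 on the log2 scale (standard error 0.08, adjusted p = 0.00136, edgeR), from 24465 ± 1268 (SD, n = 4) to 33512 ± 2786 (SD, n = 4). *Lama5* (ENSMUSG00000015647, chr2:180176373-180225859, minus strand), whose chain is laid down as brain vessels mature, had 17709.6, 17199.7, 14765 and 17984 in wild types 1 to 4 and 8715, 10302, 9490.2 and 9771 in mutants 1 to 4. The mutant values were close together, and the highest was well below the lowest wild type. *Lama5* fell by 0.82 on the log2 scale (standard error 0.09, adjusted p = 5.56e-05, edgeR), from 16915 ± 1469 (SD, n = 4) to 9569.7 ± 662 (SD, n = 4).

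*Lama1* (ENSMUSG00000032796, chr17:67697265-67822645, plus strand), the alpha chain of early embryonic and pial membranes, had 7956, 8459.8, 6306 and 7392 normalized counts in wild types 1 to 4 and 3287, 5465, 4953 and 3293 in mutants 1 to 4. As for *Lamb2*, mutants 2 and 3 stood above mutants 1 and 4 without reaching the wild types. *Lama1* fell by 0.83 on the log2 scale (standard error 0.17, adjusted p = 0.00313, edgeR), from 7529 ± 924 (SD, n = 4) to 4249 ± 1127 (SD, n = 4). *Lama3* (ENSMUSG00000024421), known from epithelial membranes, ranged from 2066 to 2446 in mutant and from 2151 to 2988 in wild-type libraries, and its log2 fold change of -0.26 (95% interval -0.49 to -0.03) had an adjusted p of 0.0685 (edgeR). The wild-type value of 2151 came from replicate 3, and without that library the log2 fold change was -0.35 and the adjusted p 0.0101 (edgeR). Leaving out any other single library left *Lama3* not called. Without wild type replicate 1 its log2 fold change was -0.18 (adjusted p = 0.212, edgeR). *Lama2* (ENSMUSG00000019899, chr10:26980036-27619758, minus strand), whose chain is abundant around astrocyte end-feet and muscle fibres, ranged from 928 to 1492 in mutant and from 619 to 1105 in wild-type libraries. Its log2 fold change was 0.37 (95% interval -0.09 to 0.84, adjusted p = 0.169, edgeR). Wild-type pups were drawn from the litters of the mutants, and with the 3 prefixes of the library labels as a block, which may or may not mark litters, both genes were called (adjusted p = 0.0347 for *Lama2* and 0.0223 for *Lama3*, edgeR).

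*Lamc1* (ENSMUSG00000026478, chr1:153218922-153332786, minus strand) encodes the gamma chain of nearly all laminins. It had 33632, 35358, 30581 and 32957 normalized counts in wild types 1 to 4 and 51032, 48885, 43254 and 47860.0 in mutants 1 to 4. The groups were separate, and *Lamc1* rose by 0.53 on the log2 scale (standard error 0.08, adjusted p = 5.12e-04, edgeR), from 33132 ± 1979 (SD, n = 4) to 47758 ± 3280.3 (SD, n = 4). *Lamc3*, a gamma chain outside the 10 genes, rose by 1.10 on the log2 scale (standard error 0.18, adjusted p = 7.57e-04, edgeR), from 810.1 ± 153 to 1738 ± 395 normalized counts (SD, n = 4). *Lamb3* had at most 9.51 normalized counts in any library and was not tested.

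Both nidogens rose, *Nid2* by more than *Nid1*. *Nid1* (ENSMUSG00000005397, chr13:13437602-13512275, plus strand) had 34715, 37368, 31779 and 34366 normalized counts in wild types 1 to 4 and 54837, 48472, 43299.8 and 48546 in mutants 1 to 4. *Nid2* (ENSMUSG00000021806, chr14:19751257-19811787, plus strand) had 18434, 20274, 16793 and 17917 in wild types 1 to 4 and 54689, 42611, 34979.8 and 43721 in mutants 1 to 4. The mutant libraries had the same order in both genes, with mutant 1 highest and mutant 3 lowest, and neither gene overlapped between groups. *Nid1* rose by 0.50 on the log2 scale (standard error 0.09, adjusted p = 0.00138, edgeR) and *Nid2* by 1.26 (standard error 0.13, adjusted p = 4.44e-05, edgeR). The mutant means were 48789 ± 4721 for *Nid1* and 44000.1 ± 8116 for *Nid2* (SD, n = 4), and the wild-type means 34557 ± 2286 and 18354 ± 1452. *Nid2* overlaps *Rtraf* on the other strand, which averaged 1991 normalized counts in mutant and 1749.5 in wild-type libraries, and the strand setting of the counting is not given in the sources used here.

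To compare levels between genes, counts were expressed as TMM-scaled CPM per kilobase of the gene's summed exon length. In wild-type ECs the highest level was that of *Nid1* (193 ± 12.7, SD, n = 4), followed by *Lamc1* (135 ± 8.06), *Nid2* (127 ± 10.01) and *Lamb2* (122 ± 12.3). The ranges of these last 3 overlapped each other, with *Lamc1* the highest of them in each wild-type library. *Lama4* (68.3 ± 3.54), *Lamb1* (52.5 ± 1.64) and *Lama5* (50.0 ± 4.35) came next, and *Lamb1* and *Lama5* overlapped. *Lama1* (26.6 ± 3.27), *Lama3* (8.42 ± 1.17) and *Lama2* (1.78 ± 0.501) were lowest and separate from each other. In mutant ECs the order was *Nid2* (304 ± 56.0, SD, n = 4), *Nid1* (272 ± 26.3), *Lamc1* (195 ± 13.4), *Lamb1* (127 ± 15.0), *Lama4* (93.6 ± 7.78), *Lamb2* (69.3 ± 11.9), *Lama5* (28.3 ± 1.96), *Lama1* (15.0 ± 3.99), *Lama3* (7.03 ± 0.584) and *Lama2* (2.31 ± 0.537). Only the ranges of *Nid2* and *Nid1* overlapped among those neighbours. *Nid2* was the higher in each mutant library, barely so in mutant 3 (241.30 against 241.29). *Lamb1* thus stood below *Lamb2* in wild-type ECs and above it in mutant ECs. The order of other genes depends on the length used. Per kilobase of coding length, *Lama4* in wild-type ECs (151 ± 7.84, SD, n = 4) came after *Lamc1* and before *Nid2* (147 ± 11.6) and *Lamb2* (138 ± 13.8), and *Lamb1* (94.7 ± 2.96) came next after *Lamb2*. On that scale *Nid1* (440.1 ± 42.6) stood before *Nid2* (352 ± 65.0) in mutant ECs.

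Each class of chain was then divided into shares of its summed level per length, which are given as a description without a test. *Lamb1* made up 28.7%, 29.1%, 32.3% and 30.5% of the beta chain level in wild types 1 to 4 and 70.6%, 60.9%, 58.1% and 69.3% in mutants 1 to 4. The beta chain sum itself was 175 ± 13.7 CPM per kilobase in wild-type and 197 ± 10.5 in mutant ECs (SD, n = 4), so the make-up differed more than the total. Per kilobase of coding length the sum was 232 ± 16.5 and 308 ± 19.7 (SD, n = 4), so the size of the rise in the total depends on the length used. *Lama4* made up 44.1% ± 1.19 of the alpha chain level in wild-type and 64.0% ± 3.34 in mutant ECs, and *Lama5* 32.2% ± 1.06 and 19.4% ± 1.58 (SD, n = 4). *Lama1* took 17.1% ± 1.01 and 10.2% ± 2.41 in the same order. None of these shares overlapped between the groups, while the alpha chain sum did, at 138 to 163 in wild-type and 137 to 158 in mutant libraries.

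Relative to *Lamc1*, the alpha chain sum was 1.15 ± 0.0333 times the *Lamc1* level in wild-type and 0.753 ± 0.0524 times in mutant ECs (SD, n = 4). The beta chain sum was 1.29 ± 0.0332 and 1.01 ± 0.0450 times the *Lamc1* level, and the nidogen sum 2.36 ± 0.0356 and 2.95 ± 0.239 times. *Nid1* made up 60.3% ± 0.396 of the nidogen level in wild-type and 47.5% ± 2.16 in mutant ECs. The summed exon length of a gene includes exons that ECs may not use and is more than double the coding length for *Lama4* (12068 against 5448 bases). Coding length in turn leaves out untranslated bases, on which reads may also have been counted, so neither scale corrects the other. With coding lengths, *Lama4* made up 62.6% and 78.7% of the alpha chains, *Lamb1* 40.8% and 74.5% of the beta chains and *Nid1* 68.0% and 55.8% of the nidogens in wild-type and mutant ECs. The groups stayed apart in these 3 shares, and on that scale *Nid1* was the larger nidogen share in mutant ECs too. The alpha chain sum overlapped between groups with either length, but its mean was lower in mutant ECs with exon length (146 against 155) and higher with coding length (263 against 242).

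**Figure D3:**
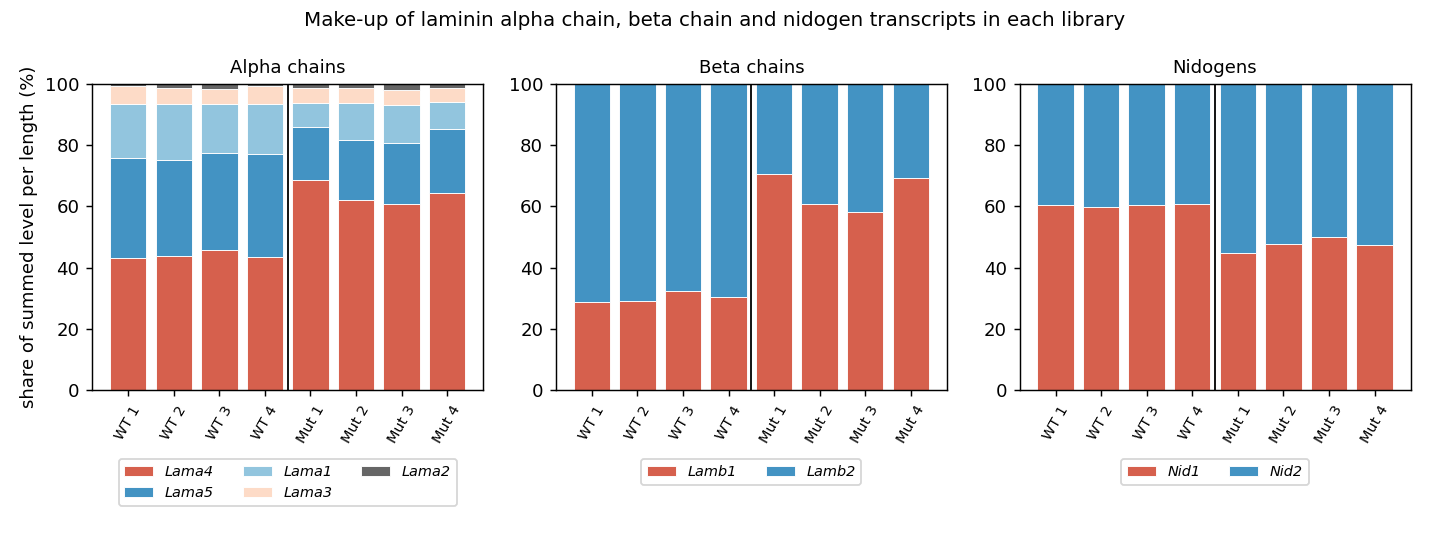
Share in percent (y axis) of each gene in the summed level per length of the alpha chains, beta chains and nidogens, in each wild-type (WT) and mutant (Mut) library. *Lamb1* held 28.7% to 32.3% of the beta chain level in wild-type and 58.1% to 70.6% in mutant libraries.

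Libraries within a group also differed together. Mutant 1 was the highest and mutant 3 the lowest of the mutants in all 5 genes that rose, and wild type 2 was the highest and wild type 3 the lowest of the wild types in the same 5 genes. The EC marker sum was highest in mutant 1 (14840 CPM) and lowest in mutant 3 (12248 CPM) among mutants, and lowest in wild type 3 (11524 CPM) among wild types, but the highest wild type was replicate 1 (13968 CPM) and not replicate 2 (13769 CPM). The genes were also expressed as a percentage of the EC marker sum of the same library, a scale chosen after the values were seen. On it the 5 genes stayed above the wild types and *Lama1*, *Lama5* and *Lamb2* below them. *Lama3* also separated (0.534% to 0.588% in mutant, 0.629% to 0.721% in wild-type libraries), and *Lama2* overlapped. The share of all genes that separate on this scale was not computed. Of the 10 EC markers, 3 were higher and 3 lower in mutant ECs, beside 21.5% and 22.9% over all genes tested. *Cdh5* had a log2 fold change of 1.11 and *Kdr* of -0.59. The labels carry 3 prefixes, shared by replicates 1 and 2, by replicates 3 and by replicates 4 of both groups, and what a prefix stands for is not stated. The sign of the difference between mutant and wild type was the same in all 3 prefixes for all 10 genes. The share of all genes for which this held was not computed. The prefixes of replicates 3 and of replicates 4 each hold 1 mutant and 1 wild-type library. The difference ranged from 1.11 to 1.34 on the log2 scale for *Lamb1*, from -1.06 to -0.43 for *Lamb2* and from 1.06 to 1.32 for *Nid2*. For *Lama3* it ranged from -0.48 to -0.03.

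Markers of other cells that lay down laminins were measured beside the 10 genes, and in bulk RNA fewer cells of a type and less RNA per cell cannot be told apart. The shares to set beside the marker calls are 21.5% higher and 22.9% lower over all genes tested. All 8 pericyte markers were detected, and they summed to 733 to 1168 CPM in mutant and 651 to 1172 in wild-type libraries. The 6 smooth muscle markers summed to 194 to 329 and 174 to 330 CPM, and the 7 fibroblast and meningeal markers to 1062 to 1376 and 936 to 1239 CPM, so these 3 lists overlapped between groups. Of the pericyte markers, *Abcc9* and *Kcnj8* were higher and the other 6 were not called. Of the smooth muscle markers, *Tagln* was higher and the other 5 were not called. Most of the fibroblast and meningeal sum was *Col1a1* and *Col1a2*, and of that list *Lum* and *Col1a1* were higher, with log2 fold changes of 0.67 and 0.39, while *Col3a1* and *Pdgfra* were lower, with -0.51 and -1.03. The 2 mutants and the 2 wild types with the highest pericyte sum, replicates 2 and 3 of each group, were also those with the highest *Lama2*. The mutants with more *Lama1* and *Lamb2* were replicates 2 and 3 as well, but wild type 3 had the lowest *Lama1* and *Lamb2* of the wild types, and the part of pericytes in those values was not tested. The 7 astrocyte markers summed to 641 to 757 CPM in mutant and 385 to 456 in wild-type libraries, most of it *Gja1*, a connexin gene that rose (19462 ± 2148 against 11160 ± 933 normalized counts, SD, n = 4). *Aldh1l1* fell, and the other 5, among them *Gfap* and *Aqp4*, did not pass the threshold. All 6 oligodendrocyte lineage markers, of which *Pdgfra* is also in the fibroblast list, were lower, with sums of 32.5 to 62.3 CPM in mutant and 101 to 271 in wild-type libraries, and all 5 red blood cell markers were lower, with 86.7 to 285 and 530 to 920 CPM. Of the other lists, 4 of 6 neuron markers and 2 of 5 choroid plexus markers were lower, and the 7 microglia and macrophage markers summed to 123 to 425 CPM in mutant and 154 to 533 in wild-type libraries. The part of these cells in the lower laminin genes was not tested.

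The genes that work with laminins were taken from 6 lists with 40 genes, of which 39 were tested, 14 were higher and 15 lower. Over all genes tested, 21.5% were called higher and 22.9% lower. The median log2 fold change of the 39 genes was 0.06, beside -0.02 over all genes tested. In the collagen IV network, to which nidogens tie laminin, *Col4a1* rose from 103498 ± 7946 to 219976 ± 19592 normalized counts and *Col4a2* from 108251 ± 9029.8 to 188039 ± 18535 (SD, n = 4), log2 fold changes of 1.09 and 0.80 (adjusted p = 1.95e-05 and 1.53e-04, edgeR). *Col4a3* was the other of the 6 chains that was called, with a log2 fold change of -1.59 from a wild-type mean of 405 normalized counts. The proteoglycan perlecan, *Hspg2*, which nidogens also bind, rose from 46116 ± 3951 to 109396 ± 18270.0 (log2 fold change 1.25, adjusted p = 4.02e-05, edgeR). The multiplexins *Col18a1* and *Col15a1* rose by 1.50 and 5.28 on the log2 scale, the latter from 1672 ± 140 to 64801 ± 16244 normalized counts (SD, n = 4), and agrin, *Agrn*, a heparan sulfate proteoglycan that binds laminin, fell by 0.74 on the log2 scale. These 3 genes had adjusted p between 1.27e-07 and 2.54e-04 (edgeR).

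Of 8 further matrix proteins that bind laminins or nidogens or lie in the same membranes, 2 were higher and 4 lower. Over all genes tested these shares were 21.5% and 22.9%. *Fbln2*, a fibulin that binds nidogen, fell by 1.81 on the log2 scale (standard error 0.15, adjusted p = 1.60e-05, edgeR), from 16993 ± 2858 to 4839 ± 861 normalized counts (SD, n = 4). *Fbln1* fell by 1.16 and *Hmcn1*, a hemicentin, by 1.48 on the same scale, while *Pxdn*, which cross-links collagen IV, rose by 2.03. *Sparc* and *Fn1*, at 153033 and 247073 normalized counts in wild-type ECs, had log2 fold changes of 0.06 and 0.12 and did not pass the threshold (adjusted p = 0.648 and 0.384, edgeR).

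The 10 receptor genes split into 5 higher, 4 lower and 1 not called, beside 21.5% higher and 22.9% lower over all genes tested. *Itga6*, the alpha subunit of a main laminin receptor, rose from 10901 ± 938 to 20002 ± 2581 normalized counts (SD, n = 4), or by 0.88 on the log2 scale (standard error 0.10, adjusted p = 1.20e-04, edgeR). Its partner *Itgb1* rose by 0.39. *Itga3* rose by 1.91, *Itga2*, which pairs with *Itgb1* and binds collagens and laminins, by 2.43, and *Mcam*, an adhesion molecule that binds alpha 4 laminin, by 1.93 on the log2 scale. The genes that fell were *Bcam*, a receptor for the alpha 5 chain, with a log2 fold change of -0.90, *Itgb4* with -0.89, *Itga1* with -0.40 and *Dag1*, which encodes dystroglycan, with -0.31. The adjusted p of *Dag1* was 0.0278 (edgeR) and lay over 0.05 without mutant replicate 3 (0.0714), mutant replicate 4 (0.0854), wild type replicate 1 (0.0913) or wild type replicate 2 (0.0832). Of the 10 genes for the sugar chain through which dystroglycan binds laminin, 5 fell and 1 rose, beside 22.9% and 21.5% over all genes tested. Their log2 fold changes lay between -0.78 for *Pomk* and 0.28 for *B3galnt2*.

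**Figure D4:**
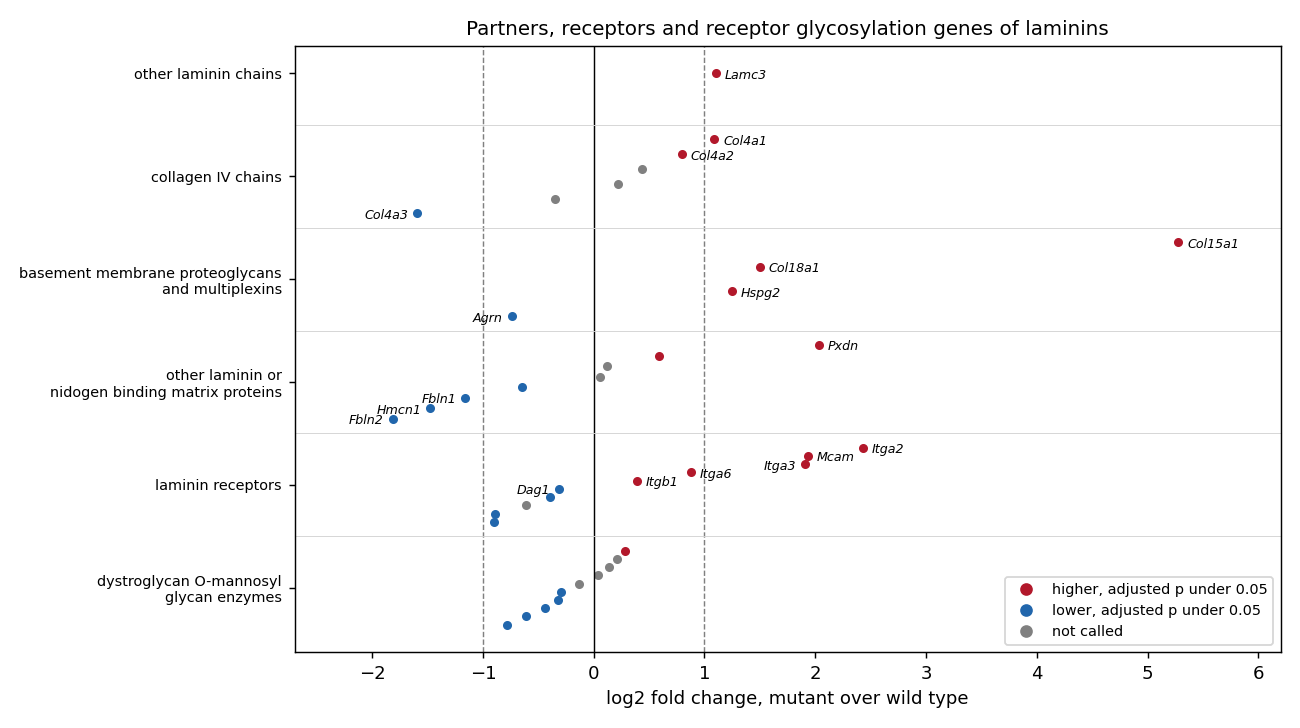
Log2 fold change of mutant over wild type (x axis) for the 39 tested genes of the 6 lists (y axis), coloured by the call at an adjusted p under 0.05, with dashed lines at -1 and 1. *Col15a1* at 5.28 lay farthest out, and *Fbln2* at -1.81 was the lowest.

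*Lamb1* had the smallest p of the 10 genes and ranked 135 by p among the 16887 tested. Of 8883 other genes with a mean of at least 10 CPM, the 3 whose standardized log2 CPM lay closest to that of *Lamb1* over the 8 libraries were *Tgfb1* (Euclidean distance 0.109), *Fkbp10* (0.144) and *Inhbb* (0.155). *Tgfb1* encodes transforming growth factor beta 1, *Fkbp10* a folding enzyme for procollagen and *Inhbb* the beta B subunit of activins and inhibins. Standardizing removes the size of a difference, and *Tgfb1* rose by 1.15, *Fkbp10* by 1.09 and *Inhbb* by 5.07 on the log2 scale. Since *Lamb1* was picked by its p between the groups, nearness to it may largely restate that group difference. Shared control of these genes was not tested.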

How the data were processed

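Poly(A) RNA from brain ECs of 8 pups was sequenced, 1 library per pup, and libraries were grouped by their titles. After trimming with Trimmomatic and alignment to GRCm38 with STAR, the authors deposited a whole-number count for each gene, not normalized. The counting program, annotation release and strand setting are not given in the sources used here, and the library kit is not described as strand-specific. The authors' DESeq2-normalized values were not used. Symbols from GENCODE vM21 matched 48970 of 49315 gene IDs, and gene positions were read from the count files.

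With edgeR 4.0.16 in R 4.3.3, genes were filtered by filterByExpr (minimum count 10), scaled by TMM and tested by glmQLFit and glmQLFTest on genotype alone. The standard error is the log2 fold change over the square root of its F statistic. Same-group libraries differed by more than sampling noise (chi-square per degree of freedom 6.70 to 37.1), and at 24833373 to 34196955 counts per library counting error is small beside it for the 10 genes. The analysis was tested on simulated data.

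The members and lists were chosen with earlier results of these data known. All 10 members are named, and 3 genes of the partner lists are not reported here and are in no count of them. Partner genes are named by rule if their log2 fold change passed 1 in either direction with an adjusted p under 0.05, or if they are *Col4a1*, *Col4a2*, *Hspg2*, *Itga6*, *Itgb1* or *Dag1*. Other partner and marker genes were named after their values were seen. Alternatives were DESeq2 1.42.0, other normalizations and filters, the replicate number or label prefix as a block, each library left out, and coding length from GENCODE, chosen after seeing the data. The planned coding length from RefSeq proteins was not run.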

Additional observations from a re-analysis of the deposited data

How the results depend on the processing

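*Lamb1*, *Nid2*, *Lama4*, *Lamc1*, *Nid1*, *Lama1*, *Lama5* and *Lamb2* kept their direction and an adjusted p under 0.05 under all 15 alternatives. These were DESeq2, 2 other normalizations, 2 other filters, 2 blocks and each of the 8 libraries left out. The alternatives reuse the libraries of the main fit, and the share of all genes that kept their call throughout was not computed. The log2 fold change of *Lamb1* stayed between 1.22 and 1.35, that of *Lamb2* between -0.90 and -0.72, and that of *Nid2* between 1.16 and 1.36. With the replicate block, 6 members were higher and 4 lower, since *Lama2* (0.39, adjusted p = 0.00912, edgeR) and *Lama3* (-0.25, adjusted p = 0.0358, edgeR) were called as well. Both were also called with the label prefix as a block (adjusted p = 0.0347 and 0.0223, edgeR). Calls over all 16887 genes tested rose too. They were 3973 higher and 4189 lower with the replicate block, 4182 and 4428 with the prefix block, and 3631 and 3873 in the main fit. *Lama3* was called on total library size without scaling factors (-0.31, adjusted p = 0.0159, edgeR) and without wild type replicate 3. In the other 11 alternatives it was not called. Same-numbered mutant and wild-type libraries had correlations of 0.201, 0.210, 0.290 and 0.0241 between their deviations from the group means, and not every library correlated best with its own number, so the numbers were not taken as pairs. Within the prefix shared by replicates 1 and 2, correlations between the groups lay from 0.165 to 0.253. Those of replicates 1 and 2 with replicate 3 of the other group lay from -0.358 to -0.0807. Mutant 4 correlated best with wild type 3 (0.384), of another prefix. With libraries left out in turn, 5 members stayed higher and 3 to 4 were lower, and of the 39 partner genes tested 14 to 15 were higher and 10 to 16 lower, the fewest without wild type replicate 1. Lower calls over all genes were also the fewest without that library, at 3006 of 16991 tested. No log2 fold change of the 10 members or of the partner genes named by rule changed sign. The difference in the alpha chain sum did so with coding length, with overlap between the groups on both scales. Shares and ratios per length moved with coding length: the beta chain sum over *Lamc1* to 1.00 in wild-type and 0.922 in mutant ECs, the alpha chain sum over *Lamc1* to 1.04 in wild-type ECs, and the nidogen sum over *Lamc1* to 1.98 and 2.37, with the same direction between groups.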
